A study of Mus musculus with 4 samples.

Results

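Short insulated domains are stretches of chromosome of at most 500 kb that lie between neighbouring insulation boundaries, and 186 of 1779 domains in Hi-C profiles of mouse blood progenitors were of this kind. An insulation score is low where few contacts cross a position and high where many do, so a domain appears as a hump of the score between a pair of minima. A boundary was a 20 kb bin whose score, averaged over all 4 libraries, was lowest within 10 bins on each side and deeper by 0.2 or more than the average of the maxima found to its left and right. A domain was the stretch between neighbouring boundaries with every bin scored in all 4 libraries, measured from the centre of its left to the centre of its right boundary bin. The domains were thus chosen by the insulation scores themselves, averaged over the libraries, so their levels, lengths and hump shapes are given as descriptions. The rule pooled both genotypes and did not use the difference between them. The difference is the quantity tested.

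Bone marrow cells of the mouse were depleted of lineage-marked cells, and Hi-C was run with the restriction enzyme DpnII. One group was Stag2 wildtype (2 libraries) and the other Stag2 knock-out (2 libraries). The labels used here give no strain, age, sex, allele or deleting Cre line, and do not state that each library is its own animal. The p-values below thus reflect library-to-library spread alone, part or all of which may be technical. The files hold contact-derived scores and no expression values, so the progenitor identity was not checked against marker genes. The libraries had scores in 117486 to 120151 bins of 20 kb, and 117252 bins were scored in all 4. Sequencing depth is unknown, as are the log base and the window behind the score. The SD of the score across bins was larger in knock-out (0.452 and 0.464) than in wildtype (0.432 and 0.438).

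The product of Stag2 is part of cohesin, a ring complex that extrudes chromatin into loops until it meets CTCF bound to DNA. Domains seen in Hi-C arise where extrusion is held at such sites, and cohesin carries either the STAG1 or the STAG2 subunit in somatic cells. In blood, loss of STAG2 is known from myeloid malignancies. The comparison addressed whether the humps and boundaries of the smallest domains differ between progenitors with and without Stag2.

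The 186 short domains made up 10.5% of all domains and 3.61% of the length that domains cover (74.6 Mb). Their lengths ran from 220 kb, found once, to 500 kb, found 23 times, with a median of 400 kb, against 900 kb over all domains. The lower end follows from the rule, since boundaries had to be lowest within 200 kb on each side. Short domains were scattered: 160 stood alone among longer neighbours, 11 neighbouring pairs were found, and 4 followed each other on chromosome 10 from 120350001 to 121970000 (mm9). Of 358 neighbouring domains, 330 (92.2%) were longer than 500 kb. Chromosomes 10 and 13 held 16 short domains each, and chromosome X held 3.

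Short domains were low humps. The interior bins averaged -0.137 in each wildtype library, and -0.113 and -0.126 in the knock-out ones. Peak height, the highest interior score minus the mean score of both boundary bins, had a median of 0.342 and ran from 0.0587 to 0.845 over the 186 domains. In longer domains the median was 0.821. The highest interior bin, located in the mean of all libraries, scored 0.0362 and 0.0364 for wildtype, and 0.0390 and 0.0364 for knock-out. Longer domains reached 0.341 in wildtype and 0.346 in knock-out. Longer neighbours peaked on average 0.384 above the short domain beside them, and 293 of the 358 neighbours (81.8%) had the higher peak. Domains just inside the length limit (500 kb, 23 domains) had a mean peak height of 0.443 in wildtype, and those just outside (520 kb, 19 domains) 0.570.

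On average the humps were lower in knock-out: their boundary bins scored higher, and their tops differed little. Peak height averaged 0.378 and 0.374 for wildtype, and 0.324 and 0.351 for knock-out. The genotypes did not overlap. The genotype means were 0.376 ± 0.00262 and 0.337 ± 0.0185 (n = 2 each, SD), a difference of -0.0384, so that knock-out humps had 89.8% of the wildtype height. Knock-out replicate 1 stood at 86.3% and knock-out replicate 2 at 93.3%. The boundary bins averaged -0.341 and -0.338 in wildtype and -0.285 and -0.314 in knock-out, a difference of 0.0398. The tops differed by 0.00142. In the 1593 longer domains the height difference was -0.0181, or 97.9% of wildtype, with knock-out replicate 1 at 95.2% and knock-out replicate 2 at 101%. Since the members were chosen with results of these data known, no p is given for these means. Without knock-out replicate 1 the difference in peak height was -0.0253 and that in interior score 0.0113, against 0.0177 with all libraries. Over all domains, leaving out that library turned the mean height difference to 0.00243.

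**Figure D1:**
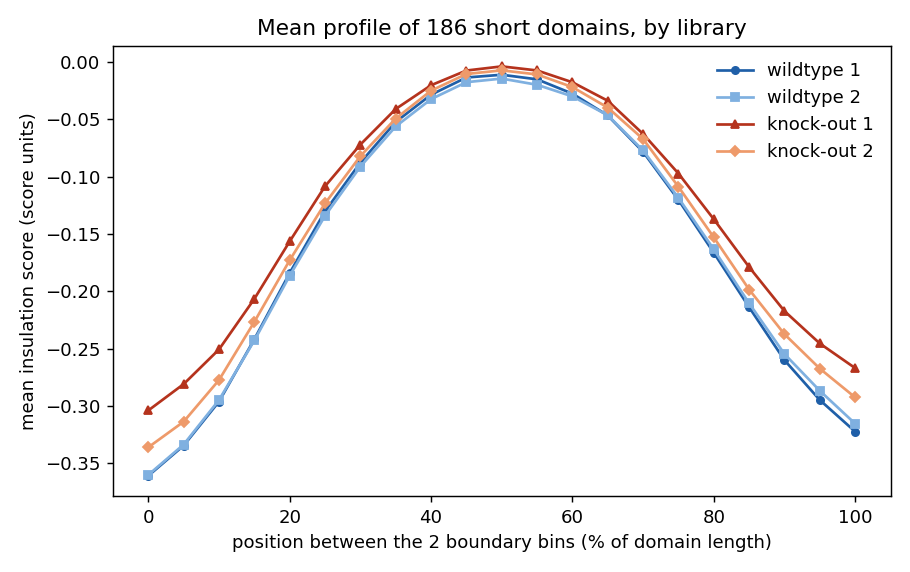
Mean insulation score (score units) of the short domains against the position between the left boundary bin (0%) and the right boundary bin (100%), 1 line per library. Knock-out lies above wildtype by 0.0405 at the left boundary and 0.0391 at the right, and by 0.00723 in the middle.

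Along the domains the difference narrowed toward the centre. At the left boundary bin the profile stood at -0.360 in wildtype and -0.320 in knock-out, and at the right boundary bin at -0.319 and -0.280. At 25% of the length the difference was 0.0164, and at the midpoint it was 0.00723. On average the rise was seen at the higher-scoring and at the lower-scoring boundary, and domains in which both rose were not counted. The boundary with the higher score went from -0.225 ± 0.00443 to -0.182 ± 0.0172, and that with the lower score from -0.454 ± 0.00102 to -0.417 ± 0.0235 (n = 2 each, SD). The step between the 2 boundaries was 0.230 in wildtype and 0.235 in knock-out.

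Single domains mostly went the same way. Peak height was lower in knock-out, by the genotype means, in 145 of 186 domains (78.0%). Taking libraries pairwise, it was 63.4% at the lowest (knock-out replicate 2 below wildtype replicate 2) and 78.0% at the highest (knock-out replicate 1 below wildtype replicate 1). Within knock-out, replicate 1 lay below replicate 2 in 71.5% of the domains, and within wildtype replicate 1 lay below replicate 2 in 45.7%. The genotypes did not overlap, with knock-out the lower, in 85 domains (45.7%) and, with knock-out the higher, in 20 (10.8%). Over all 1779 domains these shares were 33.9% and 21.5%. By the means, 58.3% of the longer domains had a lower hump in knock-out. Whether short and longer domains differ in these shares was not tested. The boundary score lay above wildtype without overlap in 98 short domains (52.7%) and below in 26, against 41.2% and 19.8% of all domains. For the top the counts were 58 (31.2%) above and 60 (32.3%) below, against 35.1% and 30.4%. Of the 145 flatter humps, 59 had a higher boundary score and a top at least as high as in wildtype, 52 had a higher boundary score and a lower top, and 34 had a lower boundary score. By the means, the boundary score was higher in 141 of all 186 short domains (75.8%), so a higher boundary score was not particular to the flatter humps. On 19 of 20 chromosomes the mean difference in peak height was below 0. The exception was chromosome 18, with 4 short domains and a mean difference of 0.00174. Chromosomes share the same 4 libraries and are not replicates, and this count was not made over all domains.

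**Figure D2:**
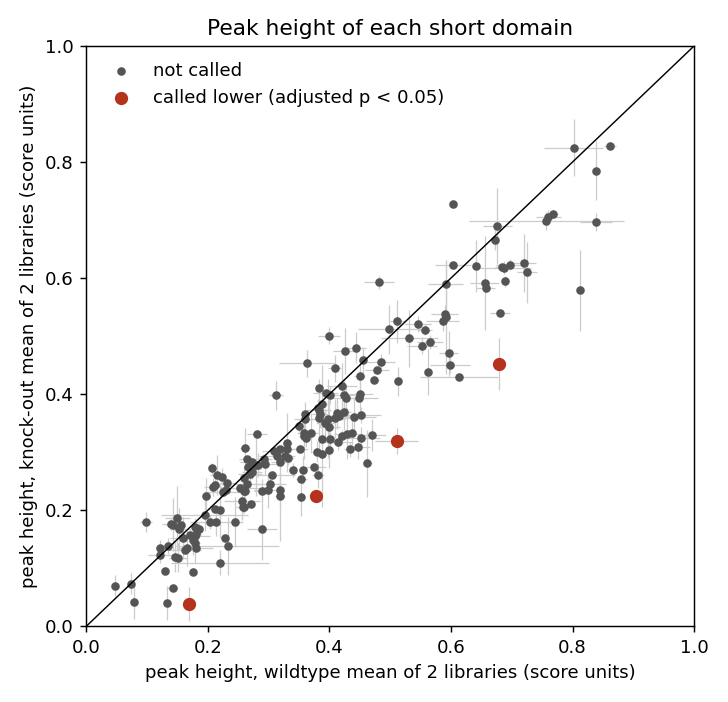
Peak height in score units of each of the 186 short domains in wildtype (x axis) and knock-out (y axis), each the mean of 2 libraries, with grey bars for the standard error and the diagonal marking equal height. Most points lie below the diagonal, and the 4 domains called lower are in red.

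Few of these differences passed the test on a single domain. Limma, fitted on peak height over all 1779 domains with Benjamini-Hochberg adjustment, called 4 short domains lower and 0 higher (adjusted p below 0.05). It gave 47 short domains (25.3%) an unadjusted p below 0.05, of which 6 (3.23% of short domains) were higher. Among longer domains these shares were 25.3% and 9.04%. The share called lower was 2.15% of the short domains, against 1.57% of all domains. Over all domains 0.956% were called higher, and 2.53% in either direction. The count called is thus near the background and is no result about short domains. It was 5 without wildtype replicate 1, 1 without wildtype replicate 2, 0 without knock-out replicate 1 (46 at an unadjusted p below 0.05) and 9 without knock-out replicate 2. The shares of all domains called in these fits were 1.63%, 1.01%, 0% and 4.61%. Limma without a trend called 0, with 29 at an unadjusted p below 0.05. Over all 1779 domains it called 22 (1.24%), with 437 at an unadjusted p below 0.05.

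The size of the difference depended on which libraries placed the boundaries, and its direction over short domains did not. With boundaries from the wildtype libraries only, 83.3% of 209 short domains were flatter in knock-out and the mean difference was -0.0499, against 72.8% and -0.0506 over all domains. With boundaries from the knock-out libraries only, the share was 57.5% of 167 and the mean difference -0.0116. Over all domains of the latter set, 45.0% were flatter and the mean difference was 0.00998. After each library was scaled to unit SD, the mean difference was -0.127 SD and 85.5% of the 186 were flatter, against -0.140 SD and 75.8% over all domains.

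Among domain lengths, the proportion of height kept in knock-out was lowest in the shortest classes. Domains of 220 to 340 kb (46 of them) kept 87.6%, those of 360 to 420 kb (69) 88.4%, and those of 440 to 500 kb (71) 91.9%. In each of these classes the knock-out libraries were the lower 2, as they also were at 520 to 800 kb (0.659 and 0.701, against 0.711 and 0.701 in wildtype, where replicate 2 of both genotypes was nearly level). Domains of 520 to 800 kb kept 96.3%, those of 820 to 1200 kb (498) 98.4%, and those over 1200 kb 98.7%. Knock-out replicate 2 stood at 99.3% of wildtype in the 520 to 800 kb class and at 101% in domains over 1200 kb. On either side of the limit the proportions were close: domains of 500 kb kept 93.2% and those of 520 kb kept 92.1%, the latter with knock-out replicate 1 at 89.7% and replicate 2 at 94.4%. In score units the differences were -0.0297, -0.0475 and -0.0352 in the 3 short classes and -0.0262, -0.0144 and -0.0130 in the 3 longer ones. Short domains also have lower humps, and the difference between length classes itself was not tested.

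**Figure D3:**
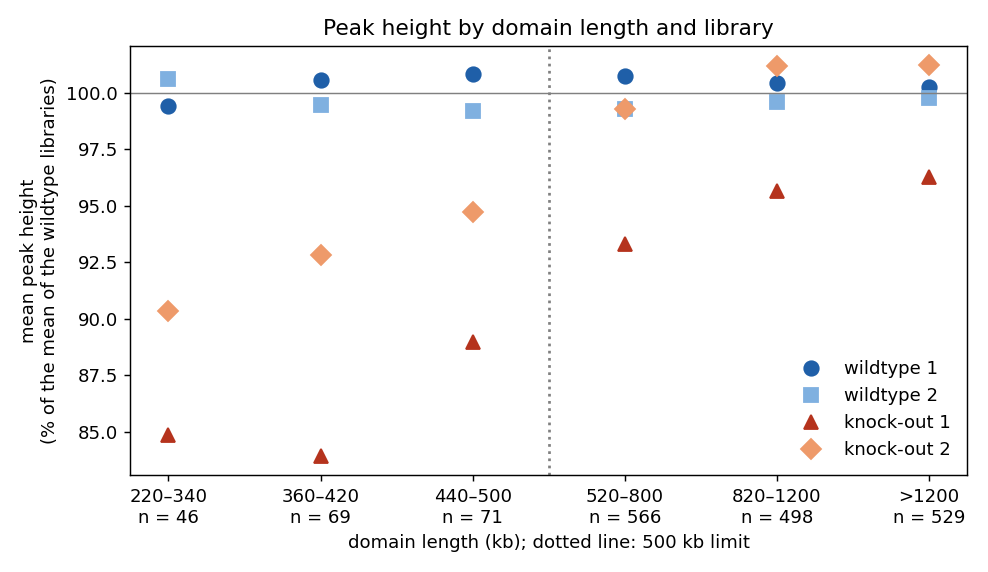
Mean peak height as a percentage of the mean of the wildtype libraries (y axis, not starting at 0) for 6 classes of domain length in kb (x axis), 1 point per library. Left of the 500 kb limit knock-out replicate 1 stands at 83.9% to 89.0% and replicate 2 at 90.3% to 94.7%, and right of it they stand at 93.3% to 96.3% and 99.3% to 101%.

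Within the short domains, low and tall humps both were lower in knock-out. The 62 lowest humps went from 0.194 ± 0.00277 to 0.174 ± 0.0116, the 62 of middle height from 0.358 ± 0.00310 to 0.311 ± 0.0240, and the 62 tallest from 0.575 ± 0.00754 to 0.527 ± 0.0200 (n = 2 each, SD). Each class kept between 86.9% and 91.6% of its wildtype height. Across the 186 domains, the difference in peak height was nearly unrelated to length (r = -0.0498, rho = -0.0284). Differences repeated between libraries with no sample in common. Differences taken between the replicate 1 libraries and between the replicate 2 libraries correlated across domains with r = 0.481 for peak height (rho = 0.424) and r = 0.738 for interior score (rho = 0.701). These correlations run over domains of the same genome and libraries and are descriptions only.

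The largest called loss of height lay on chromosome 3 from 105370001 to 105770000. The boundaries of this hump were unlike, at -0.457 on the left and 0.205 on the right in wildtype. Above their mean the hump stood 0.682 and 0.676 in wildtype, and 0.407 and 0.496 in knock-out. Its difference of -0.227 had a standard error of 0.0435 and an adjusted p of 0.0401 from limma. The top stood at 0.553 ± 0.0384 in wildtype and 0.574 ± 0.0488 in knock-out, and the boundary score rose from -0.126 ± 0.0423 to 0.123 ± 0.0138 (n = 2 each, SD). Leaving out knock-out replicate 1 gave a difference of -0.183 and an adjusted p of 0.0998.

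The short domain on the left of it, on chromosome 3 from 104890001 to 105370000, had the largest rise of interior score among all called short domains. Its interior averaged -0.415 and -0.433 in wildtype and -0.177 and -0.122 in knock-out, a difference of 0.274 (standard error 0.0244, adjusted p 0.000874 from limma). Its boundaries rose with it, by 0.270, and its peak height was 0.230 ± 0.00173 in wildtype and 0.236 ± 0.00435 in knock-out (n = 2 each, SD). This whole hump was lifted and its height differed little, whereas in its right neighbour the boundaries moved more than the interior (a rise of 0.151) and the top did not pass the test. The boundary bin that the pair share, from 105360001 to 105380000, scored -0.451 and -0.463 in wildtype and -0.147 and -0.117 in knock-out. That rise of 0.325 passed limma's test per bin (adjusted p 0.00358). The knock-out libraries were also higher at positions outside the pair. At -600 kb from the shared bin the score was -0.386 and -0.354 in wildtype and -0.263 and -0.294 in knock-out. At 700 kb it was 0.524 and 0.536 against 0.705 and 0.687. After the running mean described below was subtracted, the interior rise of the left domain was 0.0718 (adjusted p 0.0743 from limma). Limma then called 0 bins. Whether the rise is particular to the pair was not tested.

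**Figure D4:**
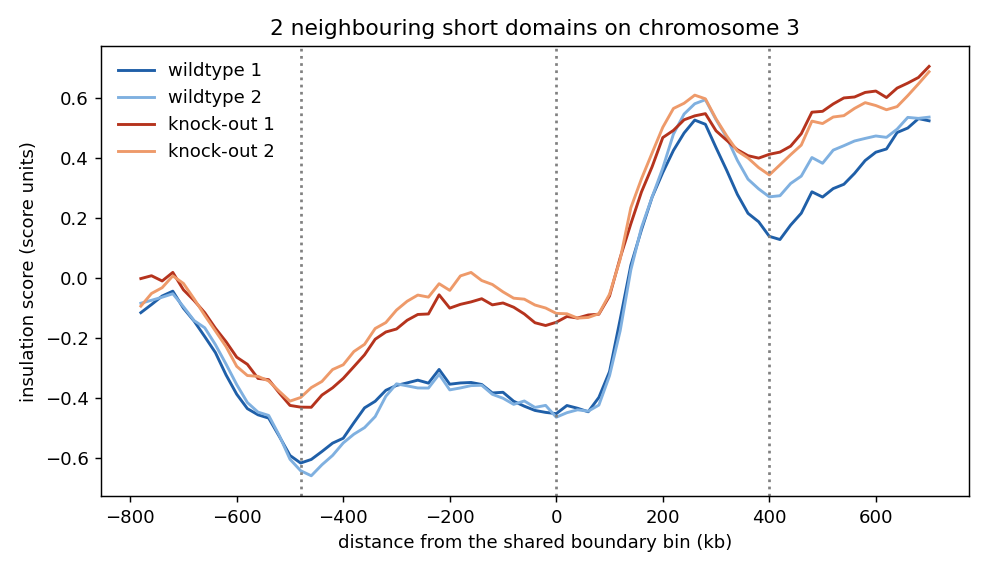
Insulation score (score units) of the 4 libraries across the 2 neighbouring short domains of chromosome 3, against the distance in kb from the boundary bin they share. Dotted lines mark the 3 boundary bins. Both knock-out lines lie above both wildtype lines at the shared boundary, and also outside the pair at -600 kb and 700 kb. The 4 lines come together over the top of the right hump.

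The 3 other called losses of height differed in how they arose. On chromosome 13 from 23430001 to 23850000 the height was 0.476 and 0.545 in wildtype and 0.297 and 0.341 in knock-out. Here too the boundary score rose, by 0.176, and the top differed by -0.0150. On chromosome 13 from 103430001 to 103930000 the height was 0.374 and 0.383 in wildtype and 0.221 and 0.229 in knock-out. In that domain it was the top that fell, by 0.176, while the boundaries differed by -0.0226. The fourth, on chromosome 19 from 22430001 to 22930000, was a shallow hump of 0.170 and 0.169 in wildtype that stood at 0.00929 and 0.0678 in knock-out. It lies outside the rule for named domains and is given because it completes the calls. None of the 3 named losses of height passed limma without knock-out replicate 1, where the differences were -0.183, -0.169 and -0.149. All 3 passed after the running mean described below was subtracted (adjusted p 0.0129, 0.0129 and 0.0402). On chromosome 13 from 23430001 the difference also no longer passed without wildtype replicate 2 (-0.156) or knock-out replicate 2 (-0.214). From 103430001 it no longer passed without wildtype replicate 1 (-0.158) or wildtype replicate 2 (-0.148).

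No short domain was called taller in knock-out. The 3 with the lowest unadjusted p among those with a higher mean are given as a description. The hump on chromosome 17 from 36970001 to 37450000 stood at 0.609 and 0.598 in wildtype and at 0.734 and 0.723 in knock-out. That on chromosome 13 from 54790001 to 55290000 stood at 0.417 and 0.381 against 0.487 and 0.515, and that on chromosome 16 from 49110001 to 49430000 at 0.0888 and 0.108 against 0.163 and 0.196. In all 3 the libraries of the genotypes did not overlap, and the adjusted p from limma ran from 0.103 to 0.133. The chromosome 17 hump lay between unlike boundaries, at -0.347 and -1.35 in the mean of all libraries.

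The extremes of hump height are shown next, with no test. The tallest short domain, on chromosome 4 from 86130001 to 86630000, stood at 0.851 and 0.872 in wildtype and 0.823 and 0.834 in knock-out. It was followed by chromosome 12 from 65910001 to 66410000, at 0.753 and 0.851 against 0.776 and 0.873, and chromosome 3 from 115210001 to 115690000, at 0.844 and 0.834 against 0.734 and 0.836. Only the first of these separated the genotypes. The third lay between unlike boundaries, at -1.16 and -0.00241 in the mean of all libraries. The lowest hump, on chromosome 17 from 29730001 to 30030000, stood at 0.0484 and 0.0474 in wildtype and 0.0516 and 0.0875 in knock-out. The other two of the lowest, on chromosome 13 from 99110001 to 99370000 and chromosome 15 from 78710001 to 78970000, averaged 0.0785 and 0.0737 in wildtype and 0.0412 and 0.0736 in knock-out. In the run of 4 short domains on chromosome 10, which span 1620 kb, the mean heights from left to right were 0.179, 0.351, 0.259 and 0.354 in wildtype and 0.171, 0.305, 0.233 and 0.222 in knock-out. Every one of them was lower by the means, and the rightmost differed most, by -0.132, with 0.358 and 0.350 in wildtype and 0.191 and 0.254 in knock-out.

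Interior scores differed in both directions, with rates per domain close to those of domains in general. Limma on the mean interior score, fitted over all 1779 domains, called 41 short domains higher (22.0%) and 24 lower (12.9%) in knock-out. Over all domains 25.4% were called higher and 15.7% lower, 41.1% in all. The genotypes did not overlap, with knock-out the higher, in 82 (44.1%) and, with knock-out the lower, in 48 (25.8%), against 43.2% and 31.6% of all domains. By bins, 638 of 3546 interior bins (18.0%) were called, 440 higher (12.4%) and 198 lower (5.58%). Of all bins 22.4% were called, 11.2% higher and 11.2% lower. Lower calls were less frequent among the interior bins, but the bins were not matched for compartment (described below). This difference was not tested. Called bins lay in 81 of the 186 domains. In 9 domains every interior bin was called in 1 direction, and in 2 domains bins were called both ways. These counts per domain were not set against longer domains and are a description only. The boundary score of each domain, tested after seeing the data, was called higher in 40 (21.5%) and lower in 8, against 18.4% and 5.4% of all domains (23.8% in all). The top was called higher in 24 and lower in 17, against 14.7% and 8.94% of all domains (23.7% in all). Of the 41 domains with a higher interior, 29 (70.7%) also had a boundary score called higher, and of the 24 with a lower interior 7 (29.2%) had one called lower. Over all domains the shares were 48.2% of 452 and 21.9% of 279.

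These counts shifted with the libraries used. Without wildtype replicate 1 limma called 25 interiors higher and 13 lower, and without wildtype replicate 2 it called 31 and 13. These were 20.4% and 23.7% of the short domains, against 17.4% and 22.6% of all domains. The called interior bins were 269 and 225 in these fits (7.59% and 6.35%, against 7.86% and 8.06% of all bins). The share of boundary scores called was lower without either wildtype library and higher without knock-out replicate 2, in short domains and over all domains. Once each library had its 1.02 Mb running mean removed, limma called 0 interiors of short domains and 0 over all domains. It gave 72 of 186 short domains and 504 of all 1779 an unadjusted p below 0.05. The mean interior difference of short domains turned from 0.0177 to -0.00700, and over all domains from 0.0116 to 5.83e-05. The difference in peak height, which compares bins within a domain, was -0.0376 after the same subtraction. Boundary scores were then called in 1.61% of short domains, against 25.8% before it. Over all domains the shares were 2.92% and 23.8%.

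Among short domains with a higher interior in knock-out, the 6 largest changes included the domain of chromosome 3 described above. On chromosome 15 from 76810001 to 77310000 the interior scored -0.0937 and -0.126 in wildtype and 0.163 and 0.105 in knock-out. All 24 of its interior bins were called higher, and its adjusted p was 0.000997 from limma. On chromosome 17 from 70710001 to 71030000, a domain with a low interior score, the interior went from -0.817 and -0.816 to -0.546 and -0.653. On chromosome 18 from 82150001 to 82590000 it went from -0.365 and -0.370 to -0.191 and -0.142. In each of these the knock-out libraries lay above both wildtype libraries by more than the range within either genotype. The domains of chromosome 6 from 48930001 to 49410000 and chromosome 4 from 118250001 to 118630000 rose by 0.187 and 0.186, and every one of their 23 and 18 interior bins was called higher.

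Among those with a lower interior, the largest change was on chromosome 6 from 35210001 to 35550000. Its interior scored -0.127 and -0.0558 in wildtype and -0.292 and -0.362 in knock-out, a difference of -0.236 (standard error 0.0308, adjusted p 0.00181 from limma). On chromosome 2 from 19330001 to 19690000 the interior went from -0.295 and -0.255 to -0.459 and -0.502, with all 17 interior bins called lower. The hump of that domain was 0.450 ± 0.0132 high in wildtype and 0.432 ± 0.0358 in knock-out (n = 2 each, SD), so boundaries and top moved down together. On chromosome 13 from 107430001 to 107930000 the interior fell by 0.185 while the boundary score differed by -0.0368. On chromosome 17 from 12190001 to 12590000 it fell by 0.182, and the top fell by 0.244. On chromosome 12 from 60010001 to 60390000 it fell by 0.165, a call lost without wildtype replicate 1 (-0.123) and without knock-out replicate 2 (-0.129). On chromosome 9 from 95350001 to 95790000 it fell by 0.153, with 8 of 21 interior bins called lower. The other 11 of these 12 named domains passed limma's test whichever single library was left out, and 0 of the 12 passed after the running mean was subtracted, with adjusted p from 0.0535 to 0.476.

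**Figure D5:**
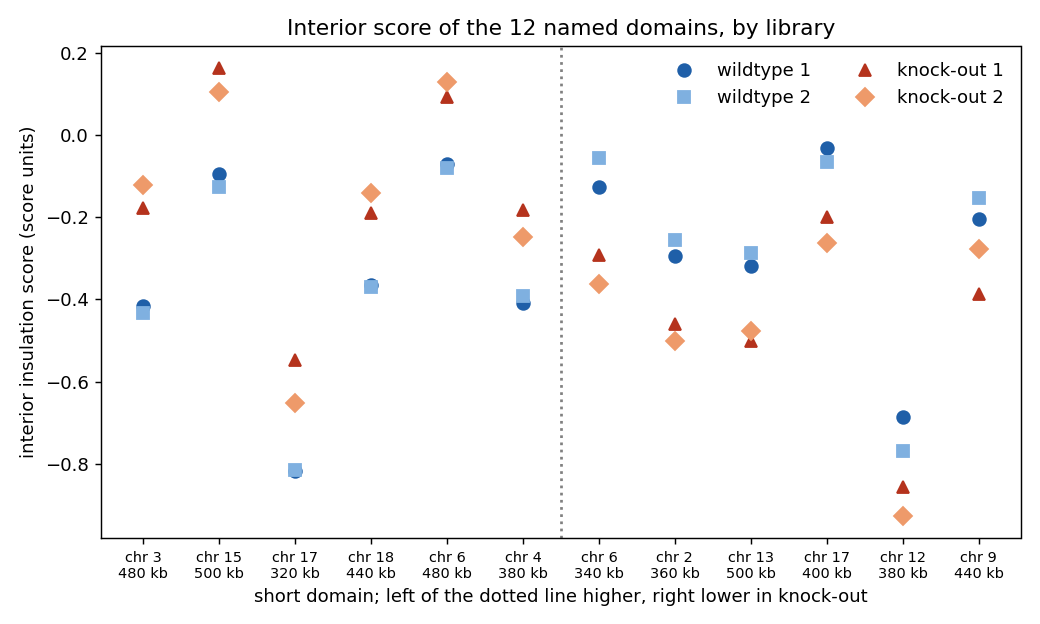
Mean interior insulation score (score units, y axis) of the 12 short domains named for the largest called changes, 1 point per library, labelled by chromosome and length. Left of the dotted line both knock-out libraries lie above both wildtype libraries, and right of it below them.

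Short domains lay mainly in the positive compartment. The compartment eigenvector divides chromosomes into a positive and a negative class of bins, and here it came as 1 profile per genotype in 200 kb bins, so that none of its differences has a replicate check. A domain was classed by the mean wildtype eigenvector over its interior. It was positive in 155 of 186 short domains (83.3%) and in 976 of 1593 longer domains (61.3%). Ranked within its own chromosome, the median short domain stood at 69.6% and the median longer domain at 61.7%. In 53 short domains the eigenvector took both signs across the interior.

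The flattening was seen in both classes, and interior calls went both ways in each. In the positive class peak height went from 0.398 ± 0.00322 to 0.356 ± 0.0194 (n = 2 each, SD), and 123 of 155 domains were lower by the means. In the negative class of 31 domains it went from 0.265 ± 0.000360 to 0.247 ± 0.0143 (n = 2 each, SD), and 22 were lower. The interior was called higher in 38 and lower in 21 of the positive short domains, and higher in 3 and lower in 3 of the negative ones. Among longer domains the positive class had 350 called higher and 55 lower of 976, and the negative class 61 higher and 200 lower of 617. The share called lower was thus 13.5% of short and 5.64% of longer positive domains. In the negative class it was 9.68% of short and 32.4% of longer ones. The mean interior difference was 0.0190 in positive and 0.0116 in negative short domains, against 0.0369 and -0.0303 in longer ones. The difference between short and longer domains in this respect was not tested.

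In 8 short domains the eigenvector changed sign between genotypes, and in all 8 it went from positive in wildtype to negative in knock-out. Positive in wildtype were 155 of the 186, so most could change only in this direction. The wildtype values of the 8 were small, from 0.00179 to 0.00714, and the same count was not made for longer domains. Interior score differences of the 8 ran from -0.206 to -0.0232, and 4 of the 8 were called lower (15.7% of all domains were). The 2 with the largest fall were the named domains of chromosome 2, where the eigenvector went from 0.00242 to -0.00337, and of chromosome 9, where it went from 0.00714 to -0.00958. The eigenvector was higher in knock-out in 30 of the 41 short domains with an interior called higher, in 4 of the 24 called lower and in 82 of all 186. Eigenvector and scores may rest on the same libraries.

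The authors' 10 kb profiles, 1 per genotype, covered 183 of the 186 short domains. Read at the same positions, mean peak height was 0.343 in wildtype and 0.309 in knock-out, and 139 of the 183 (76.0%) were lower in knock-out. The boundary score was -0.285 in wildtype and -0.247 in knock-out, and the top 0.0581 and 0.0619. Of 63 covered domains with a called interior, 62 had the same sign in the 10 kb profiles, as did 4 of the 4 called losses of height. These profiles may come from the same libraries and have no replicates, so they are a second reading at finer bins and not a separate experiment.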

How the data were processed

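Insulation scores per library (20 kb bins), insulation scores per genotype (10 kb bins) and a compartment eigenvector per genotype (200 kb bins) were deposited by the authors, per the file headers, and each was treated as a score. The submitters' processing notes name mm9 as the build. How reads were aligned, filtered, balanced and pooled, and the window used, is not given in the sources used here. Groups came from the genotype label. Replicate numbers follow accession order and pair no libraries.

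Interior score, boundary score, top and peak height were computed per domain and library with Python 3.11.15. Limma 3.58.1 in R 4.3.3 (lmFit, eBayes with a trend, genotype as the only term) was fitted over 117252 bins and over all 1779 domains, with Benjamini-Hochberg adjustment at 0.05, and tested on simulated data. Named domains were the 6 largest called rises and falls of interior score at least 1 Mb from scored chromosome ends, the 3 largest called losses of height (for gains, none being called, the 3 lowest unadjusted p), and the 3 tallest and lowest humps. Members, lists and tests were chosen with earlier results of these data known. Boundary score and top were tested after seeing the data. Genes were not assigned to domains, and the blood regulator and cohesin gene lists set aside for that were not used here, because no annotation in mm9 was used.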

Additional observations from a re-analysis of the deposited data

How the results depend on the processing

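As reported, limma called 18.0% of interior bins, 34.9% of short domains by interior score and 2.15% by peak height. Leaving out single libraries gave 6.35% to 21.8% of bins, 20.4% to 34.4% by interior score and 0% to 4.84% by height. Subtracting the running mean over 51 bins left 0% of interior bins (768 at an unadjusted p below 0.05) and 0% of interiors. Over all bins and all domains 0% were called as well. The same subtraction gave 6.45% of heights (4.55% of all domains) and a mean interior difference of -0.00700 (5.83e-05 over all domains). Unit-SD scaling gave 18.3% of heights (18.9% of all domains), 33 of 34 of them lower, with mean differences of 0.0634 for interior and -0.127 for height. Height calls were 0% without a trend (1.24% of all domains) and 1.04% with a length limit of 400 kb (2.53% of all domains). With boundaries from the wildtype libraries they were 7.66% (7.65% of all domains). A minimum boundary depth of 0.1 gave 0%, as it did over all domains. At that depth limma gave 59 of 388 short domains and 498 of all 2404 an unadjusted p below 0.05. Boundaries from the knock-out libraries gave mean differences of 0.00296 for interior and -0.0116 for height. With the title suffix T1, carried by replicate 2 of each genotype, as a replicate block, 4.84% of heights were called (3.93% of all domains), and a crossed pairing, added after seeing the data, gave 6.99% (7.64%). Deviations of libraries sharing the suffix correlated with r = -0.108 for interior score and -0.000206 for height over the short domains, and the suffix is not known to mark a batch. In the other alternatives, the percentages of bins, interiors and heights called stayed within 1.5 times and the means within 1 SD between libraries. Calls of the boundary score shifted more, as given above. The causes of these shifts were not tested, and with 2 libraries per genotype and unknown depth, precision per domain is limited: the median standard error of a difference in peak height was 0.0331.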
